A study of Mus musculus with 9 samples.

Results

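The genes described here encode the cytosolic factors that start and drive protein synthesis. They were taken by symbol from the annotation of the array: every single-symbol gene whose name starts with Eif and a digit from 1 to 6, or with Eef1 or Eef2, without the Eif2ak kinases and pseudogene symbols. This gave 59 of the 22180 single-symbol genes on the array, each read from its brightest probe set. Of the 59, 54 lay above the median gene mean of 4.74 on the log2 scale. Eif4e1b, Eif2c5, Eef1akmt3, Eif5a2 and Eif4a3l1 lay below it, at means from 2.71 to 4.38. The symbol rule also takes in genes that are no translation factors in the strict sense, among them lysine methyltransferases of the factors and Eif2c5, which carries an old name of the Argonaute family and is annotated as a long non-coding RNA.

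Liver RNA of mice was hybridised to whole-transcript arrays, 9 in all and 3 a group. The labels spell the strain C56BL/6J in one entry and C57BL/6 in another. One group ate a regular diet (RD), another a high-fat diet (HFD), and the last a high-fat diet with an oral extract of ginseng flower buds (GFB) given daily for 12 weeks at 500 mg/kg. The mice were 5 weeks old at the start, the groups without extract received vehicle, and all livers were taken after an overnight fast. Whether the 3 arrays of a group came from separate mice is not stated. The p-values therefore reflect only how much these samples spread, which may be technical.

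Protein synthesis begins when a carrier, eIF2, brings the initiator tRNA to the small ribosomal subunit with the help of eIF1, eIF1A and the large scaffold eIF3. The eIF4 factors bind the cap of the mRNA and unwind its leader, eIF5 and eIF5B join the subunits, and eEF1 and eEF2 then deliver aminoacyl-tRNAs and move the ribosome along. Control is exerted largely on the proteins: kinases phosphorylate eIF2 in stress, mTORC1 releases eIF4E from its binding proteins when nutrients are plentiful, and eEF2 kinase slows elongation. An array reads the amount of mRNA and sees none of these modifications.

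Promoter letters, which the symbol rule did not use, were counted in the members and in all genes, with no test. RefSeq promoter windows on GRCm38.p6, 250 bases before to 50 bases after an annotated start, were matched for 45 of the 59 members and gave 59 windows. Their median GC content was 62.67%, against 52.67% over all 32851 windows and 60.67% over the 11130 windows of genes above the median brightness. The hexamer CACGTG, known as an E-box and bound by factors of the Myc family, was present in 23.7% of the members' windows, in 7.15% of all windows and in 10.1% of those of the brighter genes. The letters CCGGAAG, the core bound by ETS factors, were present in 30.5%, 8.86% and 16.7%. The letters GGGCGG, bound by Sp1, were present in 69.5%, 35.7% and 60.8%. The match was made on both strands, the windows of a gene with several starts overlap in part, and a match describes letters and not a site in use. The stress-response core TGATGCAA was in 0 of the 59 windows and in 0.895% of all windows. The letters AAGATGG were in 11.9% and 6.34%, and CCAAT in 25.4% and 37.4%.

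The bases before the start are shown for Eif3m, Eif1ax, Eif4h and Eef2, whose high-fat diet arrays all lay below those of the regular diet. These 4 were picked after their values were seen. The capitals mark CACGTG on either strand, the ETS core CCGGAAG likewise, and the Sp1 letters GGGCGG, each sequence runs 5′ to 3′ along the gene, and all coordinates are on GRCm38.p6. Eif3m lies on the minus strand of chromosome 2 and its window is chr2:105017028-105017277. Eif1ax lies on the plus strand of chromosome X (chrX:159371928-159372177), Eif4h on the minus strand of chromosome 5 (chr5:134639410-134639659) and Eef2 on the plus strand of chromosome 10 (chr10:81176381-81176630).
Eif3m: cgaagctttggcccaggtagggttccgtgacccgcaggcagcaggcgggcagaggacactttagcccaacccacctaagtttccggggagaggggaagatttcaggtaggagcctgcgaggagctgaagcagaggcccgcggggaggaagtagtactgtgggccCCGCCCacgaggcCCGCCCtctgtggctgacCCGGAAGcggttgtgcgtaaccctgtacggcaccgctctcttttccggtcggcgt
Eif1ax: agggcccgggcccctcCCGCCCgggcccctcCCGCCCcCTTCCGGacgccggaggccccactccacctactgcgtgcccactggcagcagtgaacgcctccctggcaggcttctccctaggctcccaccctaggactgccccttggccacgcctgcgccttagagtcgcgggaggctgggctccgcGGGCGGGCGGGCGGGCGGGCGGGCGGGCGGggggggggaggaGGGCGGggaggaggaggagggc
Eif4h: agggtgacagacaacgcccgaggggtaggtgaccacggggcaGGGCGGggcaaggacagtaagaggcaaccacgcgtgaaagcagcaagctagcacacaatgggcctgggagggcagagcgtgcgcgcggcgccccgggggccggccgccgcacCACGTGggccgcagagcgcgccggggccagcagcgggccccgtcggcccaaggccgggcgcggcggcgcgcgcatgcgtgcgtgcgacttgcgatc
Eef2: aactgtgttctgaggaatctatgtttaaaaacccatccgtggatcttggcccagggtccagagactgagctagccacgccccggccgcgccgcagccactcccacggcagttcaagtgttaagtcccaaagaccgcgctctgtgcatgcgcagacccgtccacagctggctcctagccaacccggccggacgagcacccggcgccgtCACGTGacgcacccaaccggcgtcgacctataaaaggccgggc
Eif1ax held 10 matches to GGGCGG, some of them overlapping, and Eif3m held 2. Eif4h and Eef2 each held 1 CACGTG, and Eif3m and Eif1ax each held 1 CCGGAAG. On the high-fat diet the median log2 difference from the regular diet was -0.01 over the 12 members with CACGTG and -0.05 over the 33 without it. It was -0.05 over the 15 with CCGGAAG and -0.04 over the 30 without it. For GGGCGG it was -0.05 over the 33 with it, of which 22 were lower, and 0.01 over the 12 without it, of which 6 were lower. Many mRNAs of the translation machinery start with a C and a run of pyrimidines, the terminal oligopyrimidine motif read by the mTORC1 pathway. At the annotated start, a C followed by 4 pyrimidines was found in 2 of 59 members' windows (3.39%), those of Eif3f and Eif2c5, and in 2.51% of all windows. The Eif3f stretch of 30 bases around the start, chr7:108934400-108934429 on the plus strand, has that run in capitals.
Eif3f: tctgttctaggctctCTCTCTTTCTCggca
Annotated starts can lie some bases from the start used in liver, so the count applies to these annotated positions.

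Array medians over the genes tested ran from 4.72 to 4.77, and array profiles correlated at 0.991 to 0.994 within groups and 0.987 to 0.993 between groups. All 8 hepatocyte markers lay above the median gene mean in every array, with albumin averaging 13.52, 13.53 and 13.55 in the 3 groups, and the 6 measured lymphocyte markers lay below it in every array. The summed linear signal of the hepatocyte markers ran from 43928 to 45446 on the regular diet, 41197 to 43695 on the high-fat diet and 44099 to 44951 with extract, and of the urea cycle enzymes among them Cps1 fell by 0.66 on the high-fat diet (adjusted p = 0.0224 in limma) while Ass1 stood at -0.75 and did not pass (adjusted p = 0.119). That of the 5 stellate cell markers ran from 1511 to 1891, 1266 to 1375 and 1538 to 1777. That of the 5 endothelial markers ran from 968 to 1095, 781 to 970 and 956 to 1183. The 6 Kupffer cell and macrophage markers summed to 642 to 973, 740 to 954 and 644 to 957. Such sums follow the brightest markers, and markers of a set went both ways on the high-fat diet. Among endothelial markers Lyve1 stood at 0.52 and Kdr at -0.47, and among stellate cell markers Des at 0.14 and Dcn at -0.38. Among hepatocyte markers Ttr stood at 0.14 and Tat at -0.47, and none of these 6 genes passed. The part of these marker shifts in the differences below was not tested, and fewer cells of a type and less RNA per cell cannot be told apart in whole liver.

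The high-fat diet was set against the regular diet to describe the translation machinery in the liver on that diet. No member passed: 0 of 59 were called by limma at an adjusted p under 0.05, where 1.34% of all genes tested (0.821% higher and 0.518% lower) and 2.48% of the brighter genes were. At an unadjusted p under 0.05 there were 12 of 59 (20.3%), against 13.3% of all genes. Of these, 3 were higher and 9 lower, against 6.89% and 6.39% of all genes. The smallest adjusted p of a member was 0.125. All differences lay between -0.32 and 0.32 on the log2 scale. The unadjusted 95% interval of the difference lay within a 1.5-fold change in either direction for 58 of 59 members, the exception being the dim Eif4e1b. Among all genes 86.1% had such an interval. Within groups the members' median SD was 0.10, against 0.12 for the brighter genes and 0.13 for all genes.

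More members were lower than higher on the high-fat diet, 36 against 23, with a median of -0.05 where the median of all genes was 0.00. The share lower was 61.0%, against 49.9% of all genes. Among the members above the median brightness it was 66.7% (36 of 54), against 50.8% of the brighter genes. The 3 arrays of one diet lay entirely above or below those of the other for 16 of 59 members (27.1%), against 15.8% of all genes. Of these 16, 12 were lower (20.3% of members, against 7.86% of all genes) and 4 higher (6.78% against 7.92%). In the 54 brighter members the non-overlapping share was 29.6%, against 23.7% of the brighter genes, and the share lower without overlap was 22.2% against 11.9%. Members are not independent of each other, and the list was given no test.

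**Figure D1:**
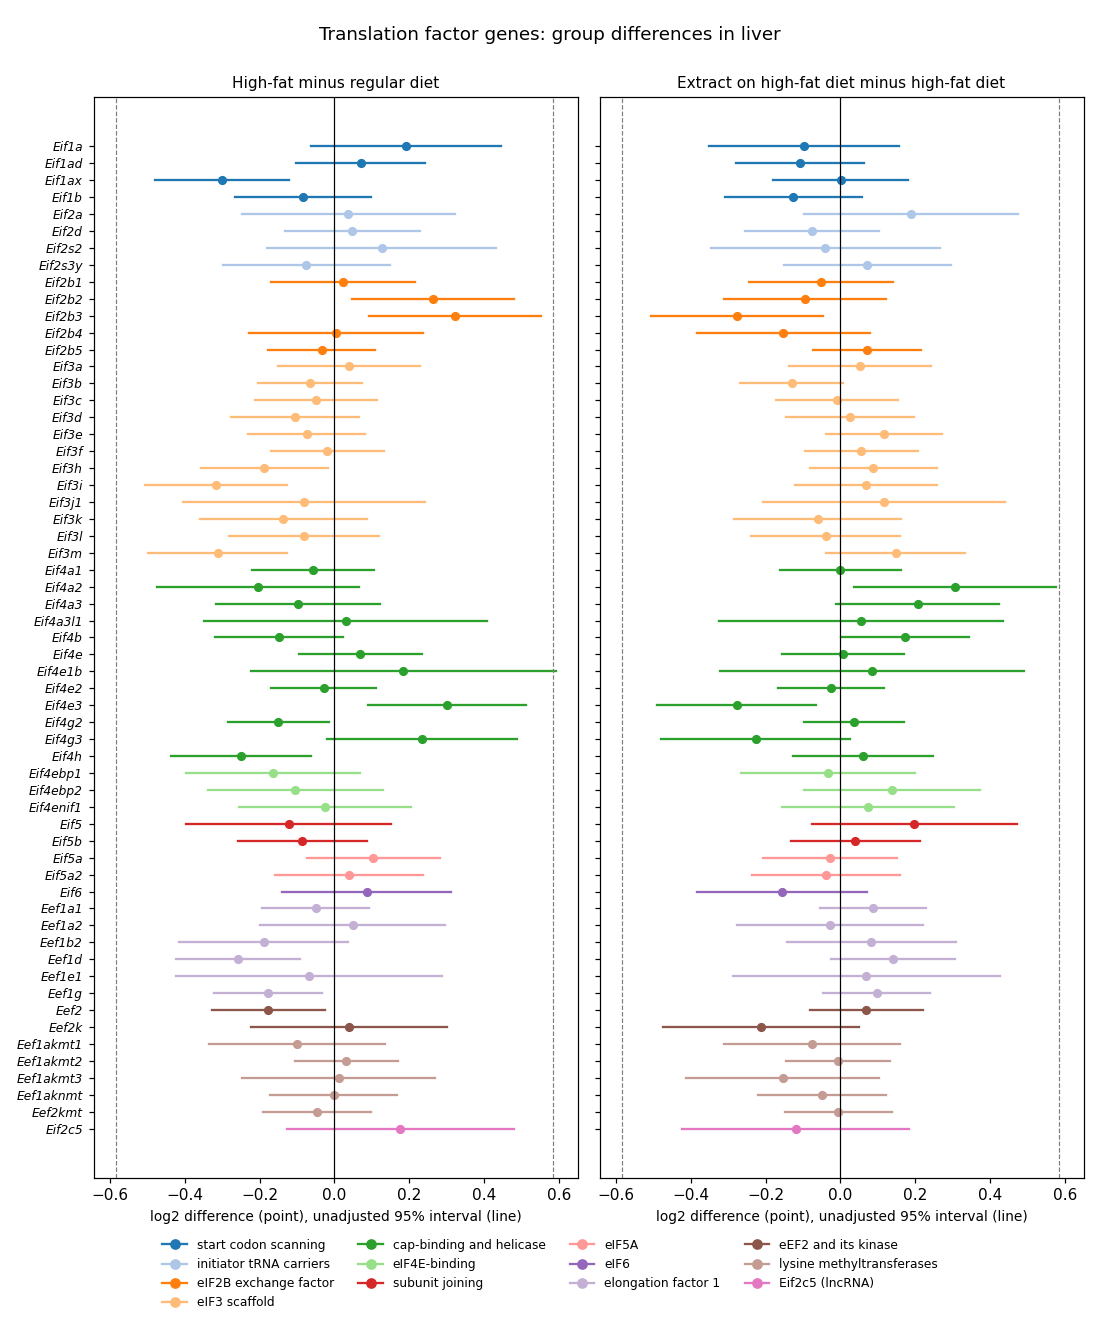
Log2 difference of each of the 59 genes (vertical axis, coloured by role) for the high-fat minus the regular diet (left) and extract minus the high-fat diet (right), with points for the limma estimates, lines for unadjusted 95% intervals and dashed lines at a 1.5-fold change. All points on the left lie between -0.32 and 0.32, and 11 of the 12 eIF3 genes lie left of 0 there.

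Among the factors that scan for the start codon, Eif1ax, which encodes eIF1A, was at 8.07, 8.19 and 8.02 in the 3 regular-diet arrays. It was at 7.90, 7.81 and 7.67 on the high-fat diet and at 7.79, 7.78 and 7.81 with extract. Every array on a high-fat diet, with or without extract, lay below every regular-diet array. The difference was -0.30 ± 0.08 (SE, 3 arrays a group), with an adjusted p of 0.127 in limma, and with extract against the regular diet it was -0.30 (adjusted p = 0.182). Its autosomal relative Eif1a stood at 0.19 ± 0.11 on the high-fat diet (adjusted p = 0.522), with arrays at 7.10, 6.87 and 7.02 against 7.18, 7.11 and 7.28. Eif1a and Eif1ax are close in sequence, so the split of signal between them is uncertain. Eif1b, a close relative of eIF1, and Eif1ad stood at -0.08 and 0.07 and overlapped between the diets.

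None of the 4 genes of the initiator tRNA carriers separated the diets. Eif2s2, the beta subunit, stood at 0.13 ± 0.14 (adjusted p = 0.759), and regular-diet replicate 2 read 5.95 where the same group's other arrays read 6.44 and 6.48. Eif2s3y, the Y-linked gene of the gamma subunit, was well above the median gene mean in all 9 arrays, from 7.50 to 7.85, and stood at -0.08 ± 0.10 on the high-fat diet (adjusted p = 0.808). Eif2a and Eif2d, which encode alternative carriers of initiator tRNA, stood at 0.04 and 0.05. Eif2s1, the alpha subunit that stress kinases phosphorylate, and the X-linked Eif2s3x were not analysed here.

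Of the 5 genes of eIF2B, the exchange factor that recharges eIF2 with GTP, 4 had a difference above 0 for the diet, and the arrays of 2 did not overlap between the diets, both higher, as for 7.92% of all genes. Eif2b3, the gamma subunit, was at 5.49, 5.72 and 5.59 on the regular diet, 6.08, 5.77 and 5.91 on the high-fat diet, and 5.70, 5.72 and 5.52 with extract. The high-fat diet arrays lay above both other groups. Its difference of 0.32 ± 0.10 from the regular diet was the highest of any member (adjusted p = 0.192), and extract minus high-fat diet was -0.28 ± 0.10 (adjusted p = 0.785). Eif2b2, the beta subunit, was at 6.04, 6.09 and 5.80 on the regular diet and at 6.11, 6.36 and 6.25 on the high-fat diet, a difference of 0.26 ± 0.10 (adjusted p = 0.266). Eif2b5, which encodes the catalytic epsilon subunit, stood at -0.03 ± 0.06, with an interval from -0.18 to 0.11.

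Of the eIF3 genes, 11 of 12 were lower on the high-fat diet, where 49.9% of all genes and 50.8% of the brighter genes were. Their median was -0.08, with a range of -0.32 to 0.04, and none passed. For 5 of the 12, namely Eif3b, Eif3d, Eif3h, Eif3i and Eif3m, the arrays of the diets did not overlap, as for 15.8% of all genes and 23.7% of the brighter genes. Eif3m was at 7.31, 7.42 and 7.39 on the regular diet, 7.06, 7.09 and 7.03 on the high-fat diet, and 7.11, 7.37 and 7.14 with extract. The high-fat diet arrays lay lowest, and 1 extract array lay among those of the regular diet. The difference was -0.31 ± 0.08 (adjusted p = 0.125) for the diet and 0.15 ± 0.08 for extract on that diet (adjusted p = 0.852). Eif3i was nearly constant on the regular diet at 8.58, 8.57 and 8.59, and lay at 8.17, 8.30 and 8.33 on the high-fat diet, a difference of -0.32 ± 0.08 (adjusted p = 0.127). With extract it lay at 8.22, 8.30 and 8.48, again below all regular-diet arrays. Eif3a, the largest scaffold subunit, was the exception with 0.04 ± 0.08. In the median over the 12 genes, relative to the mean of all arrays, regular-diet replicate 3 stood highest at 0.14, and the high-fat diet arrays lay between -0.07 and -0.03. Regular-diet replicates 1 and 2 were at 0.00 and 0.03.

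**Figure D2:**
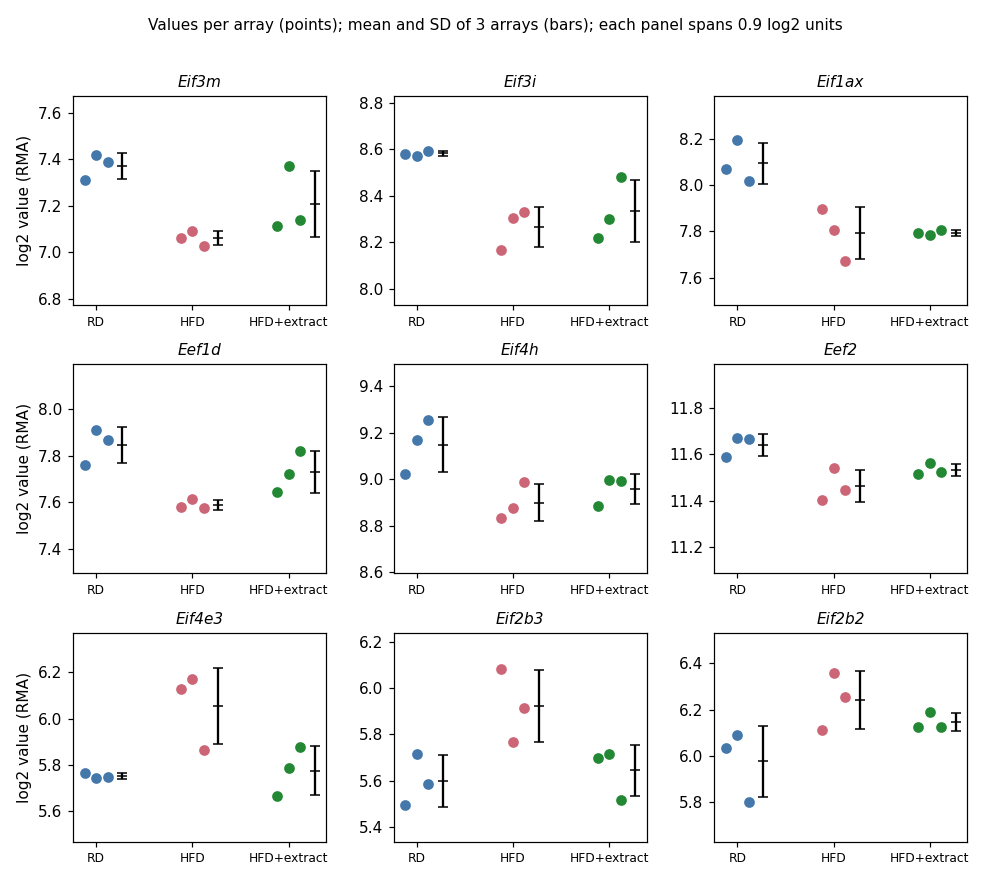
Log2 values of 9 genes in every array (points), with the mean and SD of 3 arrays beside them, for RD, HFD and HFD with extract; each panel spans 0.9 log2 units. The high-fat diet arrays lie below those of the regular diet in the first 6 panels and above them in the last 3, by at most 0.32 in the mean.

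Of the 12 genes grouped by symbol with the cap-binding and helicase complex, 7 were lower and 5 higher on the high-fat diet, with a median of -0.04. Eif4h, a cofactor of the helicase eIF4A, was at 9.02, 9.17 and 9.26 on the regular diet and 8.83, 8.88 and 8.99 on the high-fat diet. With extract it averaged 8.96 ± 0.06 (SD, n = 3), and every array of both high-fat groups lay below every regular-diet array. For the diet, the difference was -0.25 ± 0.08 (adjusted p = 0.219). Eif4e3, a relative of the cap-binding protein eIF4E, was at 5.77, 5.74 and 5.75 on the regular diet and at 6.13, 6.17 and 5.87 on the high-fat diet. With extract it was at 5.67, 5.79 and 5.88, where it overlapped both other groups. The difference was 0.30 ± 0.09 for the diet (adjusted p = 0.188) and -0.28 ± 0.09 for extract on that diet (adjusted p = 0.734). Eif4e itself stood at 0.07 ± 0.07 for the diet, with an interval from -0.09 to 0.23, and at 0.01 ± 0.07 for extract. Eif4g2, which encodes an eIF4G relative without the cap-binding part, had the smallest within-group spread of all members, with an SD of 0.02. It was lower without overlap, at 10.47, 10.49 and 10.51 against 10.32, 10.35 and 10.36, a difference of -0.15 ± 0.06 (adjusted p = 0.316). Eif4g2 is named here after its values were seen. Eif4g1 was not analysed here.

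The helicase genes Eif4a1 and Eif4a2 were each read by more than 1 probe set. Eif4a1 stood at -0.06 ± 0.07 on its brightest probe set, which averaged 13.23, and at 0.04 on its other one, which averaged 6.62. The 3 probe sets of Eif4a2 had the same direction for the diet and disagreed with extract. The brightest one was at 9.13, 9.38 and 8.97 on the regular diet, 8.91, 8.93 and 9.03 on the high-fat diet, and 9.41, 9.30 and 9.07 with extract, so that extract lay above the high-fat diet. A dimmer one was at 7.84, 8.04 and 7.85, then 7.50, 7.55 and 7.60, then 7.57, 7.52 and 7.32, so that both high-fat groups lay below the regular diet. On the brightest, the differences were -0.20 ± 0.12 for the diet (adjusted p = 0.525) and 0.31 ± 0.12 for extract on that diet (adjusted p = 0.802). On the dimmer one, tested among all 23521 single-symbol probe sets, they were -0.36 ± 0.09 (adjusted p = 0.106) and -0.08 ± 0.09 (adjusted p = 0.926). Against the regular diet, extract stood at 0.10 on the brightest and -0.44 ± 0.09 on the dimmer probe set (adjusted p = 0.0939). The remaining probe set stood at -0.19 for the diet, -0.08 for extract on that diet and -0.27 for extract against the regular diet, the same directions as the dimmer one. The direction of Eif4a2 with extract therefore depends on the probe set.

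The inhibitors of the cap complex were close together. Eif4ebp1, which encodes the eIF4E-binding protein that mTORC1 phosphorylates, was at 8.14, 8.45 and 8.37 on the regular diet, 8.22, 8.07 and 8.18 on the high-fat diet, and 7.97, 8.17 and 8.23 with extract. The groups overlapped, with -0.16 ± 0.10 for the diet (adjusted p = 0.558). Eif4ebp2 stood at -0.10 ± 0.10 and Eif4enif1, the transporter of eIF4E, at -0.03, while Eif4ebp3 was not analysed here. Eif5 and Eif5b, which act in subunit joining, stood at -0.12 ± 0.12 and -0.09 ± 0.08. Eif5a, whose product carries the modified lysine hypusine, stood at 0.10 ± 0.08. Its relative Eif5a2, below the median gene mean, stood at 0.04 ± 0.09. Eif6, which keeps the large ribosomal subunit free, stood at 0.09 ± 0.10 for the diet and -0.16 ± 0.10 for extract on that diet (adjusted p = 0.866).

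Of the 6 genes grouped by symbol as elongation factor 1, 5 were lower on the high-fat diet, with a median of -0.12. Eef1e1, at -0.07, is among the 5 and was placed there by its symbol alone. Eef1d, a subunit of the complex that recharges eEF1A, was at 7.76, 7.91 and 7.87 on the regular diet, 7.58, 7.61 and 7.57 on the high-fat diet, and 7.64, 7.72 and 7.82 with extract. The high-fat diet arrays lay below both other groups, with -0.26 ± 0.07 for the diet (adjusted p = 0.149) and 0.14 ± 0.07 for extract on that diet (adjusted p = 0.852). Eef1g, another subunit of that complex, had all 3 groups apart, with the high-fat diet lowest and extract between, at 8.34, 8.32 and 8.39, then 8.19, 8.11 and 8.21, then 8.26, 8.29 and 8.26. Its differences were -0.18 ± 0.06 (adjusted p = 0.260) and 0.10 ± 0.06 (adjusted p = 0.866). Eef1b2, the remaining subunit of that complex among the members, stood at -0.19 ± 0.10. Eef1a1, which encodes the main carrier of aminoacyl-tRNA, stood at -0.05 ± 0.06 with an interval from -0.19 to 0.09. Eef1a1 has many processed copies in the genome, which makes the assignment of its signal uncertain. Eef1a2, the form known from muscle and neurons, stood at 0.05 ± 0.11.

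Eef2, the translocation factor, was at 11.59, 11.67 and 11.67 on the regular diet, 11.40, 11.54 and 11.45 on the high-fat diet, and 11.51, 11.56 and 11.53 with extract. Both high-fat groups lay below the regular diet without overlap. The difference was -0.18 ± 0.07 for the diet (adjusted p = 0.293) and -0.11 ± 0.07 with extract (adjusted p = 0.584). Eef2k, the kinase that inhibits eEF2, stood at 0.04 ± 0.12 for the diet. The 5 lysine methyltransferase genes stood between -0.10 and 0.03, with Eef1akmt1 at -0.10 ± 0.10 and Eef2kmt at -0.05 ± 0.06, and none separated the groups. Eef2kmt had the same value, to 5 decimals, in 6 of 9 arrays. Such a repeat in 3 or more arrays occurred in 13 of 59 members (22.0%) and in 34.1% of all genes.

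**Figure D3:**
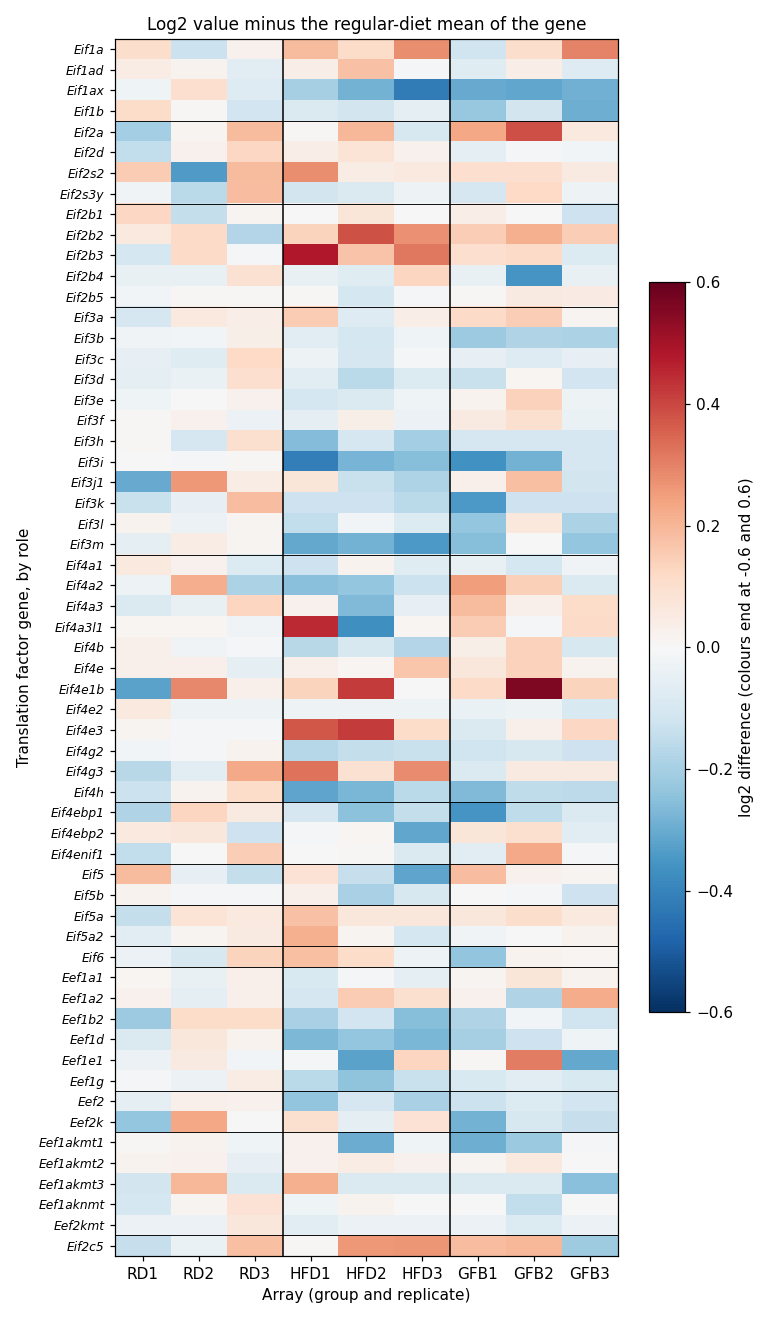
Log2 value of each gene in each of the 9 arrays minus the mean of its 3 regular-diet arrays, ordered by role, with blue for lower and red for higher. Deviations run from -0.42 to 0.56, and the eIF3 and elongation factor rows are mostly blue in the high-fat diet columns.

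The question of the extract was put within the high-fat diet, with the untreated high-fat group as its control. None of the 59 members was called by limma (0 of 59, where 0.00451% of all genes were), and 4 of 59 (6.78%) had an unadjusted p under 0.05, against 5.98% of all genes. Of these, 2 were higher and 2 lower, against 2.58% and 3.4% of all genes. The median difference was 0.00, with 31 members higher and 28 lower, and the smallest adjusted p was 0.734. The interval of all 59 differences lay within a 1.5-fold change, although Eif4a2 came close with 0.04 to 0.58. The 3 members with the smallest p were Eif4e3, Eif2b3 and Eif4a2, each given above. The groups did not overlap for 14 of 59 members (23.7%), against 9.69% of all genes and 12.9% of the brighter genes. Of these, 9 were higher with extract (15.3% of members, against 4.42% of all genes) and 5 lower (8.47% against 5.27%). Eef2k was among the lower ones, at 5.38, 5.57 and 5.53 against 5.76, 5.61 and 5.75 on the high-fat diet alone (-0.21 ± 0.12, adjusted p = 0.852). Both comparisons use the same 3 high-fat diet arrays, so an array that reads low raises the extract difference as it lowers that of the diet. In the eIF3 genes, 8 of 12 were higher with extract than on the high-fat diet, with a median of 0.05, and 7 to 10 of 12 when each extract array was left out. Relative to the mean of all arrays the eIF3 median was 0.08 in extract replicate 2, and -0.04 in both other extract arrays, within the range of the high-fat diet arrays. Without extract replicate 2 the median difference was 0.03.

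**Figure D4:**
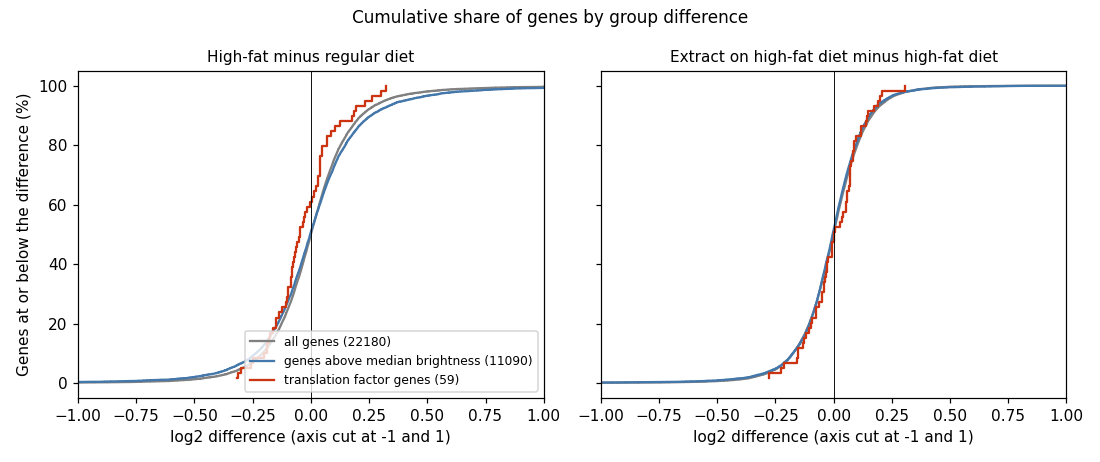
Cumulative share of genes (vertical axis, percent) by log2 difference for the 59 translation factor genes, all 22180 genes and the 11090 genes above the median brightness, for the high-fat minus the regular diet (left) and extract minus the high-fat diet (right). At a difference of 0 on the left, 61.0% of the translation factor genes lie below, against 49.9% of all genes.

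The extract on the high-fat diet was also set against the regular diet. Again 0 of 59 members were called by limma, where 0.442% of all genes were (0.261% higher and 0.18% lower), and 5 of 59 (8.47%) had an unadjusted p under 0.05, against 12.1% of all genes. All 5 were lower, where 6.26% of all genes were. The groups did not overlap for 8 of 59 (13.6%), against 14.6%, with 7 lower (11.9% against 7.61%). In the 54 brighter members the non-overlapping share was 14.8%, against 21.1% of the brighter genes. The share lower without overlap was 13% there, against 11.2%. The median was -0.03, with 31 members lower and 28 higher, and the lowest value was -0.30 for Eif1ax. The F test over the 3 groups called 0 of 59 members, where 0.78% of all genes were called; at an unadjusted p under 0.05 it was 8 of 59 (13.6%), against 12.3%.

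The wider translation pathway was read from 9 gene lists, chosen with earlier results of these data known, with 127 of 142 genes measured. On the high-fat diet 1 of these genes passed, Mlst8, a subunit shared by the mTOR complexes. It was at 5.37, 5.37 and 5.46 on the regular diet, 5.85, 6.06 and 6.13 on the high-fat diet, and 5.51, 5.66 and 5.42 with extract. It rose on the high-fat diet by 0.61 ± 0.10 (adjusted p = 0.020 in limma), and extract minus high-fat diet was -0.48 ± 0.10 and did not pass (adjusted p = 0.331). The call rests on the arrays used: 0 listed genes passed without regular-diet replicate 2, high-fat diet replicate 2 or high-fat diet replicate 3, and 4 passed without regular-diet replicate 1. At an unadjusted p under 0.05 there were 28 of 127 listed genes (22.0%, against 13.3% of all genes), 12 higher and 16 lower. Among the 23 measured genes of mTORC1 and its regulators, 12 were higher and 11 lower, with a median of 0.00, and Mtor stood at 0.17 ± 0.08 (adjusted p = 0.426).

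Upstream of eIF2, 0 of 9 genes listed with the eIF2 kinases and phosphatase passed in limma, where 1.34% of all genes did. At an unadjusted p under 0.05 there were 2 (22.2%, against 13.3% of all genes), and the median of the 9 was 0.14. Eif2ak1, the heme-regulated kinase, stood at -0.26 ± 0.09 (adjusted p = 0.227), and Eif2ak2, the kinase activated by double-stranded RNA, at 0.32 ± 0.11 (adjusted p = 0.234). Eif2ak3, the kinase of the endoplasmic reticulum, stood at 0.19 and Eif2ak4, the sensor of amino acid shortage, at 0.09. Downstream of eIF2, 0 of 20 measured targets of the integrated stress response passed in limma. At an unadjusted p under 0.05 there were 4 (20%, against 13.3% of all genes). Of the 20, 14 were higher and 6 lower, with a median of 0.08, where 50.1% of all genes were higher. The 4 at an unadjusted p under 0.05 were 2 higher, Psat1 and Slc3a2, and 2 lower, Fgf21 and Slc7a5. The lowest values, named after they were seen, were -0.57 for the hormone gene Fgf21 (adjusted p = 0.277), -0.52 for the amino acid transporter gene Slc7a5 (adjusted p = 0.153) and -0.51 for Atf5 (adjusted p = 0.398). Atf4, the transcription factor of that response, stood at 0.17 ± 0.15 (adjusted p = 0.689), and Ddit3, one of its targets, at 0.11 ± 0.15 (adjusted p = 0.820).

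No gene of the remaining 6 lists passed in limma on the high-fat diet, with 2 to 5 genes a list at an unadjusted p under 0.05. These were 10.5% to 33.3% of a list, against 13.3% of all genes. The 5 of ribosome biogenesis (33.3%) were all lower, where 6.39% of all genes were. The 2 of termination and recycling were lower as well, the 2 of the tRNA synthetases were higher, and the other lists were mixed. The medians were -0.06 over 10 genes of termination and recycling and 0.04 over 19 genes of cytosolic tRNA synthetases and their complex. The median was -0.01 over 9 genes listed under the poly(A) tail and mRNA ends, a list that also holds Dhx29. For the other lists the medians are given next. They were -0.04 over 12 genes of eIF5A and eEF2 modification and polyamines, 0.00 over 10 translation factors outside the symbol rule, most of them mitochondrial, and -0.09 over 15 genes of ribosome biogenesis. With extract on the high-fat diet 0 of the 127 genes passed in limma, and 9 (7.09%) had an unadjusted p under 0.05, against 5.98% of all genes. Against the regular diet 0 of 127 passed in limma and 17 (13.4%) had an unadjusted p under 0.05, against 12.1% of all genes.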

How the data were processed

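The deposited log2 values, 1 per probe set and array, were made by the authors with robust multi-array average (RMA) in oligo (per the submitters' processing notes; versions are not stated there). It subtracts background and quantile-normalizes, so a shift shared by most genes is removed. For the array values a genome build was not given and was not needed. The promoter windows are on GRCm38.p6.

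Only probe sets with 1 symbol in the platform annotation were used (23521; 1814 had several symbols and 16010 none), and the brightest stood for its gene. All 59 members matched RefSeq by gene ID. The test was a limma 3.58.1 fit (R 4.3.3) of all 9 arrays (6 residual and 3.28 prior degrees of freedom), two-sided, with Benjamini-Hochberg adjustment over 22180 genes and a threshold of 0.05. An exact test of 3 arrays against 3 cannot go below 0.1. The procedure was run on simulated data with independent normal noise, as a check of the code. Detection was required there only at a log2 change of 1, which is larger than any member difference here.

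Members and lists were chosen with earlier results of these data known. Roles were assigned by symbol alone. Named were the 2 members of each role with the smallest p on the high-fat diet, the 3 with the smallest p for the extract, and a fixed set including related pairs. Of that set 4 genes were not analysed here. Other members named were chosen after their values were seen. The number of arrays limits the precision.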

Additional observations from a re-analysis of the deposited data

How the results depend on the processing

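No member was called under any of the 18 alternatives in the comparisons they give, including an adjusted p under 0.10, where the count was still 0. The lowest adjusted p of a named member was 0.0554, for Eif3m and Eif1ax on the high-fat diet among the brighter genes. Lower members on that diet numbered 33 to 41 when 1 array was left out, and lower eIF3 genes 10 to 12; both counts were added after seeing the data. The members' median ran from -0.06 to -0.03 for the diet, -0.00499 to 0.0248 for extract on the high-fat diet and -0.0420 to -0.00283 for extract against the regular diet when 1 array was left out.

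The counts over all genes moved more. For the diet they were 597 among the brighter genes, 611 at an adjusted p under 0.10 and 15 when the 6 arrays compared were fitted alone, and 58 to 452 with 1 array left out. For extract on the high-fat diet they were 4, 4 and 0 in the same order, 3 with array weights, and 0 to 3 with 1 array left out. For extract against the regular diet they were 232, 216 and 34, and 2 to 267 with 1 array left out. Pathway genes called on the high-fat diet numbered 4 among the brighter genes, 4 with trend and robust moderation, 4 at an adjusted p under 0.10, 2 with the mean of probe sets, 0 with the 6 arrays alone, and 0 to 4 with 1 array left out. The cause was not tested. Some of these alternatives hold fewer genes or arrays. The looser threshold, the moderation, the array weights and the mean of probe sets keep all of them.

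Of 1524 recomputed differences of named members, 1520 moved by less than the within-group SD. Many of these could not move, so the count overstates stability. Trend and robust moderation, restriction to the brighter genes and the replicate block left the differences unchanged, as did fitting only the arrays compared. Leaving out an array of a group not compared, or averaging probe sets for a gene with only 1, also changed nothing. Among all 1524, 0 gained or lost a call, and 56 changed sign without being called. The deviations of same-numbered arrays of different groups correlated at -0.05 to 0.17, with 1 of 9 pairs over 0.1. Whether a shared number marks a batch was not tested. With the replicate block 0 members and 201 genes were called for the diet, 1 gene for extract on the high-fat diet and 68 genes for extract against the regular diet, and 3 of 9 arrays correlated best with an array of their own number.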
